A study of Homo sapiens with 9 samples.

Results

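The vacuolar H+-ATPase (V-ATPase) is the rotary pump that acidifies lysosomes, endosomes and, in pigment cells, melanosomes. Its cytosolic V1 sector hydrolyses ATP, and the rotation that follows drives protons through the membrane sector, V0. Several subunits come in isoforms encoded by separate genes: a broadly expressed form (d1, a1, B2 or C1) and a form known mainly from specialised acid-secreting cells such as kidney intercalated cells or osteoclasts (d2, a4, B1 or C2). The 10 subunit genes described here were chosen because one of them, ATP6V0D2 (subunit d2), had one of the largest differences in WWOX cells: ATP6V0D1, ATP6V0D2, ATP6V0A1 and ATP6V0A4 of the V0 sector, and ATP6V1B1, ATP6V1B2, ATP6V1C1, ATP6V1C2, ATP6V1G1 and ATP6V1H of the V1 sector. Every probe set annotated to exactly 1 of these genes was taken, which gave 20 probe sets for 9 genes, out of 54613 probe sets and 19775 genes on the array. No probe set was named for ATP6V0A4 in the annotation used, so the a4 isoform was not analysed here.

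RNA was measured on 9 Affymetrix arrays of MDA-MB435S cells (MDA-MB435 in the labels), a line of metastatic melanoma, in 3 groups of 3 arrays. EV was the empty-vector control, WWOX carried the wild-type tumour suppressor WWOX, and WFPA carried WWOX with a mutation in the first WW domain, the part of the protein that binds partner proteins. Stable clones were made with a lentiviral pDEST12.2 vector and selected in G418. The study speaks of the replicates of each clone, so an effect of the construct and one of the clone cannot be told apart. The labels do not say that the arrays of a group were separate cultures, so p-values measure the spread between these arrays, which may be technical. Groups were taken from the sample titles, and the labels are at odds over EV and WWOX. The vector field names wild-type WWOX for the arrays titled EV, whose titles also carry "wox+", and no vector for those titled wox5, which were taken as WWOX.

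WWOX itself, the gene expressed from the vector, was lowest on the arrays titled EV on its brightest probe set, though not on every probe set. On its brightest probe set the deposited log2 intensity was 9.26, 8.80 and 8.74 on the EV arrays, 10.35, 10.12 and 10.25 on the WFPA arrays and 10.80, 10.83 and 10.34 on the WWOX arrays. Relative to EV it was 1.72 higher on the log2 scale in WWOX (SE 0.174, limma adjusted p = 0.000295) and 1.30 higher in WFPA (SE 0.174, limma adjusted p = 0.00285). The difference between WWOX and WFPA, 0.42, did not pass (limma adjusted p = 0.141). The other 4 probe sets of WWOX were uneven: one differed by 3.14 between WFPA and EV, and another was lower in WFPA than in EV by 0.73, from 9.11 to 8.38. Arrays of the same group correlated at 0.987 to 0.996 over all probe sets.

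All levels below are log2 intensities, on which a difference of 1 is a 2-fold change, and n = 3 arrays per group throughout. Levels are set against each other within a probe set and not between probe sets, whose brightness depends on their probes. Array medians lay between 6.03 and 6.05 and lower quartiles between 4.23 and 4.34, which tells where a probe set was dim. Because the genes were chosen from the comparison of WWOX with the other groups, differences that involve the WWOX arrays are given for them as a description, with no p-value; how many of them meet the rule for a call there is stated beside the share of all genes and carries no weight as a test. The comparison of WFPA with EV was not used in that choice and was tested. A gene was called when it passed an adjusted p of 0.05 and a 2-fold limit, and a gene with several probe sets was represented by the brightest one.

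Subunit d joins the membrane sector to the turning central stalk. ATP6V0D2, its restricted isoform, had the largest difference of the 9 genes. Its brightest probe set read 6.21, 5.58 and 5.77 on the EV arrays, 5.93, 6.56 and 6.53 on the WFPA arrays, and 11.73, 11.80 and 11.52 on the WWOX arrays. The WWOX arrays stood far above the other 6, whereas the EV and WFPA arrays overlapped and lay around the array median, with 2 EV arrays and 1 WFPA array under it. The deposited table holds no detection calls, so whether those levels were above background was not tested, and differences are given as differences of log2 intensity. EV averaged 5.85 ± 0.326 (SD), WFPA 6.34 ± 0.359 and WWOX 11.68 ± 0.149. The samples are bulk RNA, in which more expressing cells and more RNA per cell cannot be told apart.

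**Figure D1:**
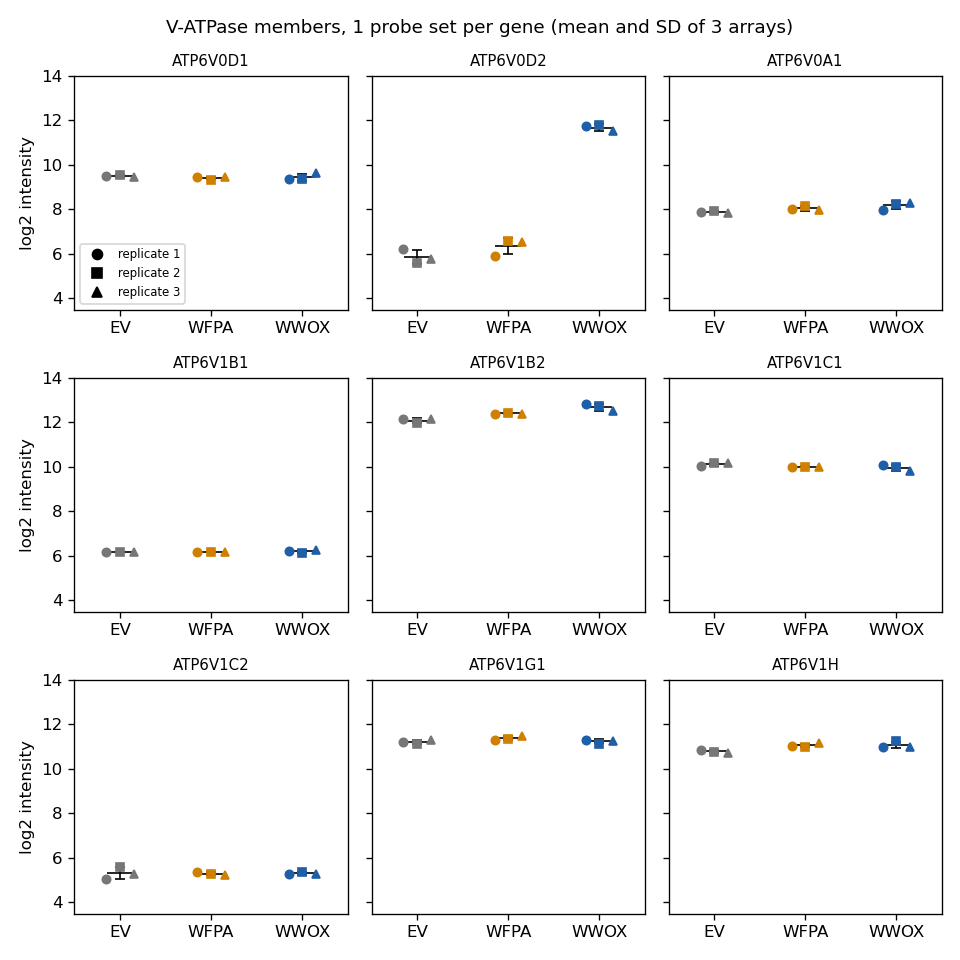
Log2 intensity (vertical axes) of the brightest probe set of each of the 9 measured subunit genes on every array, by group (EV, WFPA, WWOX); each point is 1 array, each line the mean of 3 and each bar 1 SD. ATP6V0D2 goes from means of 5.85 and 6.34 to 11.68, while the WWOX mean of each of the other 8 genes differs from its EV mean by far less, with ATP6V1B2 at 0.60 the most.

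Against the mean of EV and WFPA the ATP6V0D2 level was 5.59 higher in WWOX (SE 0.180), with 5.83 (SE 0.208) against EV alone and 5.34 (SE 0.208) against WFPA alone. This placed it at rank 6 of 19775 genes, counted from the highest difference. Between WFPA and EV it ranked 1144 and differed by 0.49 (SE 0.208, 95% interval 0.02 to 0.96), which did not pass (limma adjusted p = 0.243).

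The other 2 probe sets of ATP6V0D2 gave the same direction at different sizes. The first of them belongs to a type whose probes may also bind other transcripts; EV averaged 5.62 ± 0.449 (SD), WFPA 6.39 ± 0.424 and WWOX 11.67 ± 0.180, a difference of 5.66 (SE 0.223). The remaining one was dimmer and read 3.72, 4.51 and 4.40 in EV, 4.62, 4.93 and 4.89 in WFPA, and 8.46, 8.33 and 7.85 in WWOX. Its difference was 3.70 (SE 0.195), and its EV and WFPA values were all under the array medians. The WFPA arrays of this probe set all lay above the EV arrays, by 0.61 on average (SE 0.225), without passing the test (limma adjusted p = 0.173), and the difference of 0.77 on the cross-hybridising type did not pass either (limma adjusted p = 0.131).

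**Figure D2:**
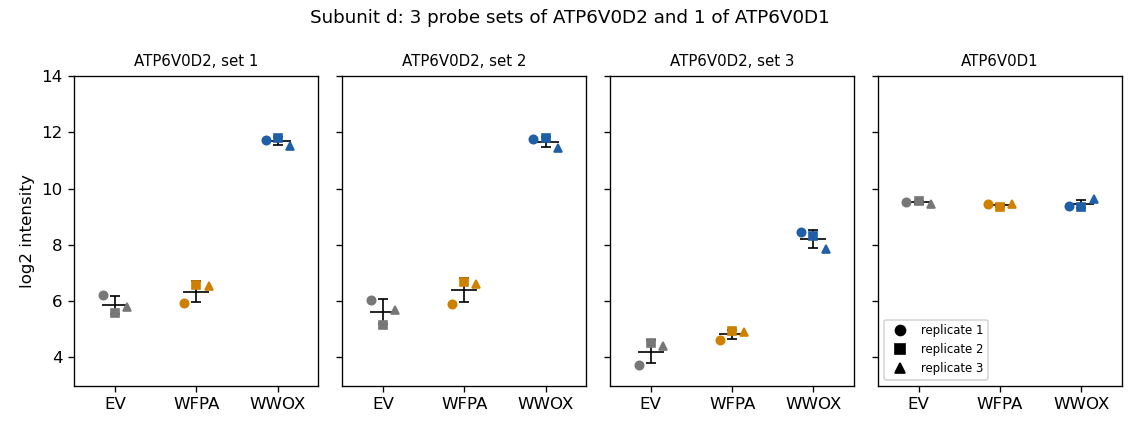
Log2 intensity (vertical axis) of the 3 ATP6V0D2 probe sets and the 1 ATP6V0D1 probe set on each array, by group; points are arrays, lines are means of 3 and bars 1 SD. Every ATP6V0D2 probe set is higher on all WWOX arrays, by 5.59, 5.66 and 3.70 against the mean of the other groups, and the ATP6V0D1 arrays of the 3 groups overlap.

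ATP6V0D1, the broadly expressed d isoform, showed no such difference. It read 9.51, 9.57 and 9.44 in EV, 9.44, 9.34 and 9.44 in WFPA, and 9.37, 9.36 and 9.62 in WWOX. The groups overlapped, and the WWOX mean minus that of EV and WFPA was −0.01 (SE 0.0842). Between WFPA and EV the difference was −0.10 (SE 0.0972, 95% interval −0.32 to 0.12, limma adjusted p = 0.676).

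Subunit a is the arm of the membrane sector that forms the path for protons and sets the compartment in which the pump works. ATP6V0A1, the a1 isoform known from neurons, read 7.87, 7.92 and 7.83 in EV, 8.02, 8.16 and 7.97 in WFPA, and 7.97, 8.25 and 8.31 in WWOX on its brighter probe set. The WWOX arrays lay above EV and overlapped WFPA, and their mean was 0.22 (SE 0.0940) above that of both groups. On the other probe set WWOX averaged 6.61, as EV did, against 6.91 in WFPA, a difference of −0.15 (SE 0.111) from the mean of both, so the 2 probe sets disagreed in sign. Both were higher in WFPA than in EV with no overlap, by 0.18 (limma adjusted p = 0.444) and 0.30 (limma adjusted p = 0.246), and neither passed.

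Subunit B alternates with subunit A in the head of V1 that hydrolyses ATP. ATP6V1B2, the broadly expressed isoform, read 12.14, 11.97 and 12.13 in EV, 12.40, 12.44 and 12.40 in WFPA, and 12.82, 12.73 and 12.51 in WWOX. The groups were ordered EV, WFPA, WWOX with no overlap between neighbours. The means were 12.08 ± 0.0952 (SD), 12.41 ± 0.0231 and 12.69 ± 0.157, and WWOX exceeded the mean of the other 2 groups by 0.44 (SE 0.0876), 1.36-fold. The step from EV to WFPA, 0.33 (SE 0.101, 95% interval 0.10 to 0.56), missed the threshold in the chosen fit (limma adjusted p = 0.101) but passed it with 3 other settings: 0.0267 with a trend of variance on level, 0.0485 when only probe sets brighter than the median were tested, and 0.0385 without WWOX replicate 3, all as limma adjusted p and all under 2-fold.

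ATP6V1B1, the isoform of kidney and inner ear, was measured poorly. Its brighter probe set carried one and the same value, 6.17, on 6 of the 9 arrays, namely every EV and WFPA array, and 6.24, 6.14 and 6.26 in WWOX; 103 probe sets in the deposited table have a single value on 6 or more arrays. The other probe set averaged 4.85 in EV, 4.74 in WFPA and 4.96 in WWOX and was under the array median on all 9 arrays. It differed by −0.10 (SE 0.121) between WFPA and EV (limma adjusted p = 0.723).

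Subunits C, G and H belong to the outer stalks of V1, which hold the head still against the rotor; C is released when V1 leaves the membrane, and H keeps the free V1 from hydrolysing ATP. ATP6V1C1, the broadly expressed C isoform, had 4 probe sets that disagreed. On the brightest EV averaged 10.13 ± 0.0604 (SD), WFPA 10.00 ± 0.0212 and WWOX 9.96 ± 0.131, a difference of −0.10 (SE 0.0790) between WWOX and the others. On another the levels were 9.58, 9.48 and 9.61 in EV, 9.55, 9.46 and 9.35 in WFPA, and 9.98, 10.03 and 9.89 in WWOX. There all WWOX arrays lay above the other 6, by 0.46 (SE 0.0788), and the remaining 2 probe sets differed by 0.08 (SE 0.0976) and 0.38 (SE 0.185) with overlap. All 4 were lower in WFPA than in EV by 0.11 to 0.23, and none passed (limma adjusted p from 0.533 to 0.694).

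ATP6V1C2, the restricted C isoform, was dim on all 9 arrays, under the array median in each group. EV averaged 5.32 ± 0.281 (SD), WFPA 5.30 ± 0.0636 and WWOX 5.31 ± 0.0617, with overlap throughout. WFPA and EV differed by −0.02 (SE 0.134, 95% interval −0.32 to 0.29, limma adjusted p = 0.968).

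ATP6V1G1 read 11.20, 11.12 and 11.30 in EV, 11.30, 11.36 and 11.48 in WFPA, and 11.32, 11.14 and 11.27 in WWOX. WWOX lay 0.05 below the mean of both groups (difference −0.05, SE 0.0812), and WFPA lay 0.17 above EV (SE 0.0938, limma adjusted p = 0.368). ATP6V1H read 10.86, 10.78 and 10.73 in EV, 11.04, 11.01 and 11.15 in WFPA, and 10.99, 11.25 and 10.99 in WWOX. WFPA and WWOX both lay above EV with no overlap and overlapped each other. The WFPA difference from EV was 0.27 (SE 0.0991, 95% interval 0.05 to 0.50) and did not pass (limma adjusted p = 0.164). The other 2 ATP6V1H probe sets, with group means between 3.05 and 3.65, were under the lower quartile on 8 and 9 arrays.

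**Figure D3:**
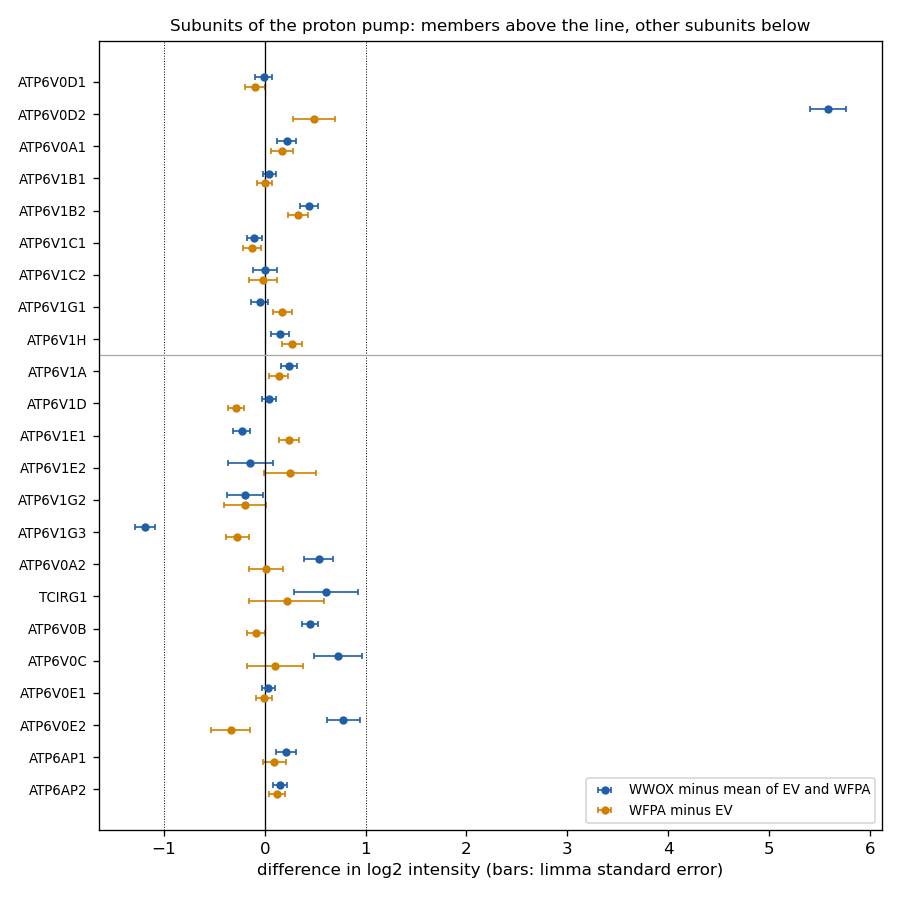
Log2 differences (horizontal axis) between groups for the 9 measured subunit genes and the 14 other pump subunits, with bars for 1 limma standard error either way and dotted lines at a 2-fold difference. ATP6V0D2 stands at 5.59 for WWOX against the mean of EV and WFPA, ATP6V1G3 at −1.19, and every WFPA against EV difference is under 1.

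Counted together, 1 of the 9 genes, ATP6V0D2, met the rule for a call in WWOX against the mean of EV and WFPA, where 4.01% of all genes did. The same gene was the 1 that met it against EV alone (3.90% of all genes) and against WFPA alone (4.73%). Without the fold limit the count was 2 of 9 against the mean of both groups (20.3% of all genes) and 2 of 9 against EV (14.8%). These counts come from the comparisons used to choose the genes, and nothing is read from them. Between WFPA and EV limma called 0 of 9 (2.23% of all genes), and 3 of the 9 had an unadjusted p under 0.05 (ATP6V0D2, ATP6V1B2 and ATP6V1H), against 22.8% of all genes; 5 of 9 had arrays that did not overlap, against 35.4% of all genes. The median WFPA difference from EV was 0.17 over the 9 genes and −0.04 over all genes.

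The isoform pairs can be compared on the same arrays through the difference between their probe sets, in which a constant offset in brightness cancels. The repeated value of ATP6V1B1 and the dim probe set of ATP6V1C2 limit what their pairs can show. The size for ATP6V0D2 is that of its brightest probe set, its dimmest having given 3.70 where that gave 5.59. From EV to WWOX the difference of ATP6V0D2 from ATP6V0D1 grew by 5.89 (SE 0.263), and from WFPA to WWOX by 5.31 (SE 0.284). From EV to WFPA it changed by 0.58 (SE 0.303, exact two-sided permutation p = 0.2). The difference of ATP6V1B1 from ATP6V1B2 changed by −0.56 (SE 0.124) from EV to WWOX and by −0.33 (SE 0.0566) from EV to WFPA (exact two-sided permutation p = 0.1), which came from ATP6V1B2, since ATP6V1B1 was at 6.17 on every EV and WFPA array. That of ATP6V1C2 from ATP6V1C1 changed by 0.16 (SE 0.157) from EV to WWOX and by 0.11 (SE 0.141) from EV to WFPA (exact two-sided permutation p = 0.5). With 3 arrays against 3 the smallest p possible is 0.1, and over the 3 pairs the adjusted values (Benjamini-Hochberg, from exact permutation) were 0.3, 0.3 and 0.5. For a1 and a4 no pair could be formed.

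The genes whose levels ran most like ATP6V0D2 over the 9 arrays, by Pearson r, were TPST1 (0.996), SERPINE2 (0.996), ARHGAP5 (0.995), GASK1B (0.994) and B3GNT7 (0.993). The arrays fall into WWOX and the rest on these genes, so that r describes a shared split between groups.

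The rest of the pump was measured by 14 of 16 further genes with 33 probe sets; ATP6V1F and RNASEK had no probe set annotated to 1 gene. In WWOX against the mean of EV and WFPA 0 rose and 1 fell by the call rule (2.06% of all genes fell), and the median difference was 0.18, against 0.04 over all genes. The gene that fell was ATP6V1G3, the G isoform described in kidney. It read 11.66, 11.81 and 11.71 in EV, 11.49, 11.36 and 11.52 in WFPA, and 10.51, 10.54 and 10.16 in WWOX on its single probe set. All WWOX arrays lay below the others, by −1.19 on the log2 scale (SE 0.101, limma adjusted p = 7.85e-05). On that single probe set ATP6V1G3 went the opposite way to ATP6V0D2, another isoform known from kidney. Whether the signal came from the ATP6V1G3 transcript was not tested.

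**Figure D4:**
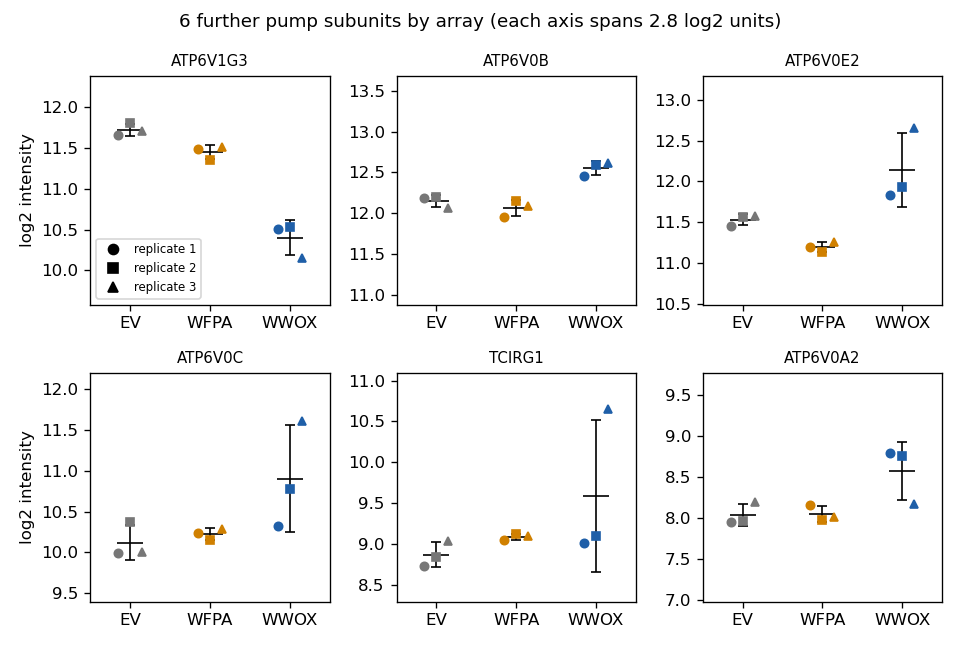
Log2 intensity (vertical axes) of 6 other pump subunits on each array by group; points are arrays, lines are means of 3 and bars 1 SD. ATP6V1G3 is below on all WWOX arrays, while ATP6V0C and TCIRG1 are spread widely within the WWOX group, with their highest value on replicate 3.

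Among the membrane-sector genes, 3 passed the adjusted p, as 20.3% of all genes did, but stayed under 2-fold. ATP6V0B, a proteolipid of the proton-carrying ring, was 0.45 higher in WWOX (SE 0.0809, limma adjusted p = 0.00577), ATP6V0E2 0.78 higher (SE 0.164, limma adjusted p = 0.0122) and ATP6V0A2, the a2 isoform of the Golgi, 0.53 higher (SE 0.145, limma adjusted p = 0.036). The ATP6V0A2 arrays overlapped, since WWOX replicate 3 read 8.16, within the EV values of 7.96, 7.96 and 8.19. Differences on its other probe sets ran from −0.05 to 0.76. For ATP6V0E2, WWOX replicate 3 carried part of the difference: it read 11.83, 11.94 and 12.65 on the WWOX arrays, and its difference was 0.52 without that array. ATP6V0C, the main ring proteolipid, read 10.32, 10.78 and 11.61 on the WWOX arrays. Its difference of 0.73 (SE 0.239) did not pass (limma adjusted p = 0.07) and was 0.38 without replicate 3, whereas without WWOX replicate 1 it was 1.02 and was called (limma adjusted p = 0.0126). TCIRG1, the a3 isoform of osteoclasts, differed by 0.61 (SE 0.319, limma adjusted p = 0.232), and by 0.07 without replicate 3. For ATP6V0D2, leaving out each array in turn kept the difference between 5.48 and 5.68. Between WFPA and EV limma called 0 of the 14 further genes (2.23% of all genes), and their differences ran from −0.34 to 0.25. An unadjusted p under 0.05 was found for 3 of them, against 22.8% of all genes.

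Many lysosomal genes carry near their start the short sequence CACGTG, to which the MiT factors MITF, TFEB, TFE3 and TFEC can bind. RefSeq promoter windows, from 250 bases before to 50 after each gene start on GRCh38.p14, were held for 6 of the 10 member genes and 12 of the 16 further subunits. No window was held for ATP6V0D2, ATP6V1B2, ATP6V1C1 and ATP6V1H, which were therefore not searched. CACGTG, which reads the same on both strands, was in those of 2 members (33.3%) and 2 further subunits (16.7%), against 2396 of 27305 genes (8.77%). The matches are printed because they show which subunit genes carry these letters near their start, with CACGTG in capitals and each 5′ to 3′ on the strand of the gene; the distance is from the first base of the motif to the gene start.
ATP6V0D1, chr16:67481202-67481225, minus strand, 59 bases before the start: ccttatggtCACGTGaggcgcttg
ATP6V1G1, chr9:114587702-114587725, plus strand, 58 bases before the start: ctgtgcggtCACGTGacaacgggg
ATP6V0B, chr1:43974894-43974917, plus strand, 57 bases before the start: gcgtggggtCACGTGgtaccggcg
ATP6V0B, chr1:43974912-43974935, plus strand, 39 bases before the start: ccggcgcatCACGTGggcgagtta
ATP6V0E2, chr7:149872887-149872910, plus strand, 72 bases before one of its starts: cttctgcatCACGTGgggactgcg

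The members with these letters, ATP6V0D1 and ATP6V1G1, differed by −0.01 and −0.05 in WWOX against the mean of EV and WFPA, and ATP6V0B and ATP6V0E2 by 0.45 and 0.78. A match of letters is no evidence of binding. Of the 4 MiT genes, 1 was called in WWOX (4.01% of all genes were): MITF, the regulator of the melanocyte lineage, averaged 11.87 in EV, 11.40 in WFPA and 13.43 in WWOX, a difference of 1.80 (SE 0.0875, limma adjusted p = 2.43e-06), and its 3 probe sets gave 1.80, 2.21 and 3.56. Against EV alone its difference was 1.56. Between WFPA and EV it differed by −0.47 (SE 0.101, limma adjusted p = 0.0266), under 2-fold.

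Genes that work with the pump were read in the same way. None of 11 measured assembly and regulatory genes was called in WWOX (limma, 0 of 11, where 4.01% of all genes were), and their median difference was 0.06. Without the fold limit 0 of the 11 passed the limma adjusted p, where 20.3% of all genes did. None was called in WFPA against EV (limma, 0 of 11, where 2.23% of all genes were), and 4 had an unadjusted p under 0.05, against 22.8% of all genes. Of 9 genes of lysosomal nutrient sensing the median difference in WWOX was −0.31. Past the adjusted p but under 2-fold, 4 were lower, LAMTOR5 (−0.51, limma adjusted p = 0.0014), LAMTOR3 (−0.48, limma adjusted p = 0.00607), RRAGC (−0.44, limma adjusted p = 0.0037) and RRAGB (−0.41, limma adjusted p = 0.00916), and LAMTOR4 was higher (0.48, limma adjusted p = 0.00682). The 1 gene called (4.01% of all genes were) was RRAGD, a Rag GTPase that brings mTORC1 to lysosomes. RRAGD averaged 10.04 in EV, 8.85 in WFPA and 10.80 in WWOX (difference 1.36, SE 0.105, limma adjusted p = 4.1e-05), and it was lower in WFPA than in EV by −1.19 (SE 0.121, limma adjusted p = 0.000612). In all, 6 of the 9 passed the adjusted p, where 20.3% of all genes did. Against EV alone none of the 9 was called, the largest difference was 0.76, and 3 passed the adjusted p (14.8% of all genes did). Between WFPA and EV 1 of the 9, RRAGD, was called (2.23% of all genes were), and differences ran from −1.19 to 0.91. There 6 of the 9 had an unadjusted limma p under 0.05, against 22.8% of all genes. Arrays of 8 did not overlap, against 35.4% of all genes. Of 9 endolysosomal channels and exchangers (median difference 0.52) 5 were higher past the adjusted p, where 20.3% of all genes passed it. Of these 5, 1 was called (4.01% of all genes were), CLCN5, an endosomal chloride/proton exchanger, by 1.22 (SE 0.131, limma adjusted p = 0.00031).

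Since d2 is known from osteoclasts and intercalated cells, markers of both were read beside it. Of 9 measured osteoclast markers (12 listed) 1 was called in WWOX, where 4.01% of all genes were. It was SIGLEC15, higher in WWOX, at 5.27 in EV, 6.91 in WFPA and 8.58 in WWOX (difference 2.49, SE 0.374, limma adjusted p = 0.00216). The log2 of the list's summed intensity ran from 9.60 to 9.84 in EV, 9.41 to 9.83 in WFPA and 10.10 to 10.23 in WWOX; without SIGLEC15 it ran from 9.53 to 9.80, 9.29 to 9.48 and 9.55 to 9.65, so that WWOX and EV overlapped. CTSK, DCSTAMP, CALCR, TNFRSF11A, OSCAR and CSF1R were under the array median on all 9 arrays, whereas NFATC1 and ITGB3, which other cells also express, were above it on all 9. Of 12 intercalated-cell markers 1 was called (4.01% of all genes were), SLC26A4, higher by 1.04 (SE 0.143, limma adjusted p = 0.0014). However, it was under the lower quartile on all 9 arrays, and the call was lost without WFPA replicate 3 (0.99), without WWOX replicate 1 (0.86) and after quantile normalization (0.99). Against EV alone none of the 12 was called, and the largest difference was 0.97. The log2 of the summed intensity ran from 9.20 to 9.24 in EV, 9.03 to 9.20 in WFPA and 9.37 to 9.45 in WWOX. Such a sum is weighted to the brightest probe sets, among them AQP6, which averaged 6.92 in EV, 6.84 in WFPA and 7.37 in WWOX. The median difference of the 12 markers was 0.16. FOXI1, the factor that specifies these cells, HEPACAM2 and CLNK were under the lower quartile on all 9 arrays too. SLC4A1, CA2 and DMRT2 were under the array median on all 9, and CA2 was under the lower quartile on 8. SLC4A9, RHCG, RHBG and AQP6 were above the median on all 9 and INSRR on 8. Between WFPA and EV limma called 0 genes of the channel, MiT, osteoclast and intercalated-cell lists, where 2.23% of all genes were called. In these lists of 9, 4, 9 and 12 genes, 5, 1, 2 and 1 had an unadjusted p under 0.05, against 22.8% of all genes. Under 2-fold, 1 channel gene and the MiT gene MITF passed the adjusted p. The largest differences, not called, were 1.54 in the channel list and 1.64 for the osteoclast marker SIGLEC15, higher in WFPA than in EV. With a trend of variance on level 1 channel gene and 1 osteoclast marker were called. For the adjusted p without a fold limit and for the trend setting no share of all genes was at hand.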

How the data were processed

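Total RNA was hybridised to Affymetrix arrays. The authors deposited 1 table of log2 intensities per probe set; the submitters' notes name Partek Genomics Suite 6.5, and the method of background correction and normalization is not given in the sources used here. Their number of 3 arrays per group limits the precision. From these values 62 control probe sets were left out of 54675, symbols were taken from the platform annotation (41091 probe sets with 1 gene, 1801 with several, 11721 with none), and 1 mean per group was fitted over all 9 arrays with limma 3.58.1 in R 4.3.3 (residual degrees of freedom 6). P-values were adjusted over all 54613 probe sets by Benjamini-Hochberg. A call needed an adjusted p under 0.05 and a 2-fold difference. Named were all 9 measured members, WWOX, MITF, the called genes of the other lists (at most 4 per list) and the 5 genes most like ATP6V0D2; other genes named were chosen after their values were seen. The members and lists were chosen with earlier results of these data known. The fit was tested on simulated data. Alternatives comprised 14 settings and 9 fits without 1 array. Promoters came from RefSeq (GRCh38.p14) and were read with Python 3.11.15. Sequences on chromosome 8 were not used here.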

Additional observations from a re-analysis of the deposited data

How the results depend on the processing

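The difference of ATP6V0D2 in WWOX against the mean of EV and WFPA, which chose the genes and is a description, ran from 4.98 to 5.68 over the alternatives. Without a fold limit the number of members past the threshold was 2 against the mean of EV and WFPA and 2 against EV, in place of 1, and that of the 14 other pump subunits was 4, in place of 1. Of all genes 20.3% passed without it against the mean of both and 14.8% against EV. With a 4-fold limit 0 of those 14 were called, and with single arrays left out 1 to 2, with 2 called without WWOX replicate 1 (ATP6V1G3 and ATP6V0C). Several differences that were not called under any setting changed sign. On the probe set of largest variance ATP6V1H was −0.0652 in WFPA against EV, and ATP6V0E1 and ATP6AP2 were −0.361 and −0.088 in WWOX against the mean of both groups; with all probe sets averaged the last 2 were −0.0535 and −0.0214. With single arrays left out ATP6V1C2 in WFPA against EV ran from −0.1495 to 0.1301 (highest without EV replicate 2, and 0.0056 without WFPA replicate 3), and ATP6V1G2 in WWOX from −0.3967 to 0.0347 (highest without WWOX replicate 3). ATP6V0D2 in WFPA against EV had a limma adjusted p of 0.0402 when all probe sets of a gene were averaged (0.62, under 2-fold). The call of CLCN5 was lost with that average (0.89), and those of CLCN5, SIGLEC15, SLC26A4 and, in WFPA against EV, RRAGD with Bonferroni adjustment. With a 4-fold limit, the one in the study's methods, CLCN5 and SLC26A4 were not called and SIGLEC15 was. The differences of MITF and RRAGD on their brightest probe sets were also under 4-fold. Replicate numbers did not pair the arrays (deviations of same-numbered arrays correlated at −0.05 to 0.03 over 9 pairs), and with the replicate number as a block 1 member was called in each comparison with WWOX and 0 in WFPA against EV, as without it. The repeated value of ATP6V1B1 and the dim probe sets of ATP6V1C2 limit what can be seen of small differences. The causes were not tested.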

Other observations

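The genes that lie next to ATP6V0D2 in RefSeq order, 3 measured genes on each side, were looked up after its values had been seen. In WWOX against the mean of EV and WFPA none of the 6 was called by limma, where 4.01% of all genes were. WWP1, a ubiquitin ligase, was 0.80 higher (SE 0.106, limma adjusted p = 0.00109), under 2-fold. CA2, a carbonic anhydrase that supplies protons in osteoclasts and kidney, differed by 0.50 (limma adjusted p = 0.247), REXO1L1P by 0.18, SLC7A13 by 0.16, PSKH2 by 0.09 and RMDN1 by −0.10. CA2 was dim, under the lower quartile on 8 of the 9 arrays, and SLC7A13 had group means from 2.22 to 2.46.

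NCOA7 and OXR1, which share a domain known to bind the V-ATPase, were higher in WFPA than in EV by 0.58 (limma adjusted p = 0.00363) and 0.45 (limma adjusted p = 0.0149), both under 2-fold. They were the 2 of 11 measured assembly and regulatory genes that passed the adjusted p there, and were named after their values were seen. The share of all genes that passed it in that comparison was not at hand.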
